A study of Mus musculus with 6 samples.

Results

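The genes of the cohesin complex, its regulators and the insulator protein CTCF were examined in resting and activated T cells. The group holds 10 of the 49671 genes in the deposited tables, chosen by name: Ctcf, Smc1a, Smc3, Rad21, Stag1, Stag2, Nipbl, Wapl, Pds5a and Pds5b. All 10 were found once in each table, 8 on autosomes and 2, Smc1a and Stag2, on the X chromosome. All libraries came from CD3+ T cells, enriched on columns from the spleens of female F1 mice. Their mothers, of strain C57BL/6 (mus), carried a heterozygous Xist deletion, and their fathers were M. m. castaneus (cast), in both groups alike. A daughter with the deletion keeps the mus X active and inactivates the cast X, and a cast read of an X-linked gene is then a read of the inactive X. The unstimulated group (day 0, 3 libraries) was collected directly. The stimulated group (day 2, 3 libraries) was cultured for 48 h with plate-bound anti-CD3 at 1 µg/ml and soluble anti-CD28 at 10 µg/ml. The labels call the 3 libraries of a group biological replicates but do not say whether each came from a separate animal, so p-values measure the spread between these libraries.

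Cohesin is a ring built from SMC1A, SMC3 and RAD21, to which either STAG1 or STAG2 binds. NIPBL, with its partner MAU2, loads the ring on DNA and drives the extrusion of loops, WAPL together with PDS5A or PDS5B takes it off again, and CTCF bound to its motif halts the ring and so sets loop anchors. The same ring holds sister chromatids together from replication to anaphase in dividing cells, and in T cells CTCF and cohesin are known for shaping the antigen receptor and cytokine loci.

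The 6 libraries held between 9.61 and 20.2 M (mega) allele-assigned reads, with more in the stimulated libraries. Cast alleles made up 49.3% to 49.4% of autosomal allelic reads. Xist, transcribed from the inactive X, was read from the cast allele at 99.92% to 99.99% of its allelic reads in each library, as the cross requires. Mean log2(RPKM + 1) over 26 cell cycle genes was 2.62, 2.58 and 3.92 in unstimulated replicates 1, 2 and 3 and 5.60 in each stimulated library. Unstimulated replicate 3 thus stood between the groups. Marker genes of other cell types moved with the groups: by limma, all 10 myeloid and all 10 B cell markers were lower after stimulation, as were 6 of 7 tested markers of erythroid cells and platelets and 7 of 8 of NK cells. Of 13 T cell markers, 4 were higher and 3 lower, a balance that depended on the scaling (4 and 5 with quantile normalisation, and 8 and 2 of 12 by edgeR on summed allelic counts). The summed RPKM of 10 B cell markers ran from 858 to 1295 before and from 78.1 to 145 after stimulation, and that of 10 myeloid markers (11 rows, since Itgam has 2) from 1141 to 3340 and from 4.54 to 7.61. Of the myeloid markers Adgre1 was listed at 0 in each stimulated library. NK cell markers summed to 406 to 552 before and 156 to 180 after, and erythroid and platelet markers to 80.6 to 1340 and 2.03 to 14.6. The 13 T cell markers summed to 1002 to 1217 and 1234 to 1303. In bulk RNA, fewer cells of a type and less RNA per cell cannot be told apart, and the part of these markers and of the cell cycle genes in the members' differences was not tested.

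At the level of both alleles together, stimulation went with more Rad21 and Pds5a RNA and with less Nipbl, Stag1 and Stag2 RNA. Expression is given as RPKM, which scales reads to gene length and to library size, so levels can be set side by side between genes. Differences are on the log2(RPKM + 1) scale from limma, with Benjamini-Hochberg adjustment over 13288 genes tested. At an adjusted p under 0.05, 4 members were higher (Rad21, Pds5a, Smc1a, Smc3), 4 were lower (Nipbl, Stag2, Stag1, Ctcf) and 2 did not pass (Wapl, Pds5b). Among all genes tested 31.2% were higher, 48.9% lower and 80.1% either, so 8 of 10 is the share seen in genes at large. Groups did not overlap for 8 of 10 members and for 83.5% of all genes. The members' median log2 difference was 0.06, against -0.24 over all genes tested. With each library centred on its median, 6 members were higher and 3 lower (40.9% and 39.2% of all genes). With quantile normalisation, 4 were higher and 4 lower (40.6% and 36.7%, and 77.3% either). edgeR on the summed allelic counts gave 5 higher and 4 lower (35.9% and 37.7% of its 15003 genes, and 73.6% either).

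**Figure D1:**
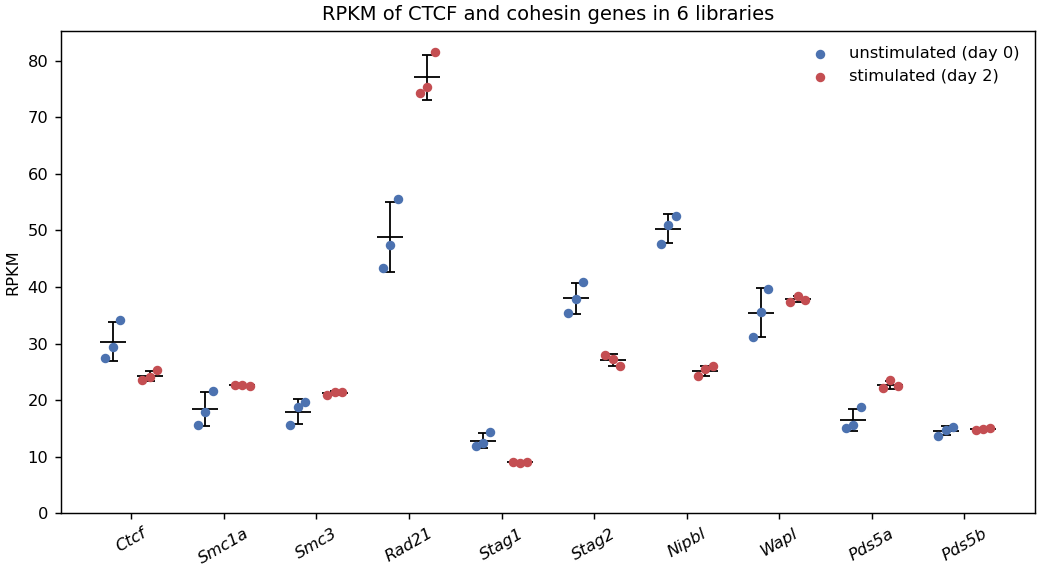
RPKM of the 10 members in each library, with unstimulated and stimulated libraries as separate points and bars for the mean and SD of a group. Rad21 rises from 43.4 to 55.5 RPKM to 74.3 to 81.6 RPKM, and Nipbl falls from 47.5 to 52.5 RPKM to 24.3 to 26.0 RPKM.

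The ring subunits were all present in both states. Rad21 (chr15:51962240-51991747, minus strand, mm10), the kleisin that closes the ring and is cut by separase at anaphase, was at 43.4, 47.4 and 55.5 RPKM in unstimulated and 74.3, 75.4 and 81.6 RPKM in stimulated libraries. All stimulated libraries lay above all unstimulated ones. The mean was 1.58-fold higher (log2 difference 0.65, SE 0.097, limma with Benjamini-Hochberg adjusted p = 0.000712). By edgeR on summed allelic counts the log2 difference was 1.10.

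Smc1a (chrX:152016428-152062694, plus strand), an ATPase arm of the ring, was at 15.6, 17.97 and 21.5 RPKM before and 22.6, 22.7 and 22.4 RPKM after stimulation. Smc3 (chr19:53600398-53645833, plus strand), the other arm, was at 15.5, 18.8 and 19.6 RPKM before and 20.9, 21.4 and 21.5 RPKM after. For both genes the lowest stimulated library was only just above unstimulated replicate 3, the highest of its group. The log2 differences were 0.30 (SE 0.11) and 0.24 (SE 0.090), with limma Benjamini-Hochberg adjusted p of 0.0434 and 0.0457. Both calls were lost when any library other than unstimulated replicate 3 was left out, with adjusted p from 0.0899 to 0.103 for Smc1a and from 0.0592 to 0.114 for Smc3. With the replicate number as a block, the adjusted p of Smc1a was 0.0506. With median centring both calls held with larger differences, of 0.56 for Smc1a (adjusted p = 0.000538) and 0.50 for Smc3 (adjusted p = 0.000514). On summed allelic counts the 2 genes parted: edgeR gave 0.68 for Smc1a (Benjamini-Hochberg adjusted p = 0.000459) and 0.07 for Smc3 (adjusted p = 0.567). Without unstimulated replicate 1 the limma differences in RPKM were 0.19 for Smc1a and 0.14 for Smc3.

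The STAG subunits, which bind the ring to CTCF and DNA, were both lower after stimulation. Stag2 (chrX:42149317-42277185, plus strand) was at 35.4, 37.8 and 40.8 RPKM before and 28.0, 27.2 and 25.9 RPKM after, with no overlap (log2 difference -0.47, limma Benjamini-Hochberg adjusted p = 0.000615). Stag1 (chr9:100597798-100959375, plus strand) was at 11.9, 12.3 and 14.3 RPKM before and 8.98, 8.95 and 9.02 RPKM after, also with no overlap (log2 difference -0.47, adjusted p = 0.00133). Stag2 was the more abundant paralogue in all libraries. The ratio of Stag2 to Stag1 RPKM within a library averaged 2.97 ± 0.11 (SD, n = 3) before and 3.01 ± 0.12 after with the groups interleaved (exact permutation test, two-sided p = 0.7). On summed allelic counts the same ratio had a log2 change of -1.32 (exact permutation p = 0.1, the smallest possible), so its direction depended on the table. With median centring the log2 differences were -0.21 for each gene, both still past the threshold, and by edgeR on summed allelic counts that of Stag2 was -1.73. Both genes overlap other annotated genes, and whether the counting used strand is not given in the sources used here. A gene model on the same strand inside Stag1, Gm3081, was at 4.01 to 4.54 RPKM before and at 0.793 to 1.24 RPKM after. Also on that strand, Gm37204 went from 2.45 to 3.27 RPKM to 0.614 to 0.802 RPKM, and Gm38297 from 0.594 to 0.850 RPKM to 0.155 to 0.279 RPKM. The Stag1 value may share reads with these models.

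The loader was lower after stimulation, and the release factor did not pass the test. Nipbl (chr15:8290617-8444463, minus strand), the loader, was at 47.5, 50.9 and 52.5 RPKM before and 24.3, 25.4 and 26.0 RPKM after stimulation. No libraries overlapped, and the mean was 2.00-fold lower (log2 difference -0.97, SE 0.059, limma Benjamini-Hochberg adjusted p = 1.19e-05). Wapl (chr14:34673928-34747983, plus strand), the release factor, was at 31.2, 35.5 and 39.7 RPKM before and 37.3, 38.4 and 37.7 RPKM after, within the unstimulated range (log2 difference 0.10, adjusted p = 0.350). Its call depended on the scale: the log2 difference was 0.36 with median centring (adjusted p = 0.00159) and 0.18 without unstimulated replicate 3 (adjusted p = 0.0425), and 0.51 by edgeR on summed allelic counts, all past the threshold. Wapl did not pass with quantile normalisation (log2 difference 0.02, limma Benjamini-Hochberg adjusted p = 0.803).

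Pds5a and Pds5b, the paralogous ring-bound factors that work with WAPL and also protect acetylated cohesin, came out differently in the test. Pds5a (chr5:65605721-65698273, minus strand) was at 15.1, 15.7 and 18.8 RPKM before and 22.1, 23.5 and 22.6 RPKM after, with no overlap (log2 difference 0.44, limma Benjamini-Hochberg adjusted p = 0.00294). The difference was 0.71 with median centring and 0.75 by edgeR on summed allelic counts. Pds5b (chr5:150673739-150810690, plus strand) was at 13.7, 14.8 and 15.2 RPKM before and 14.7, 14.8 and 15.1 RPKM after, with the groups interleaved (log2 difference 0.03, adjusted p = 0.646). Pds5b also did not pass with quantile normalisation (log2 difference 0.11, limma Benjamini-Hochberg adjusted p = 0.0817). With median centring Pds5b was higher as well (log2 difference 0.29, adjusted p = 0.00207), as it was by edgeR on summed allelic counts (0.29). The ratio of Pds5b to Pds5a RPKM within a library does not depend on that scaling and was lower in each stimulated library than in each unstimulated one, at 0.888 ± 0.069 before and 0.656 ± 0.022 after (SD, n = 3 and 3). Both genes may share reads with same-strand gene models inside them. In Pds5a, C030017G13Rik went from 2.27 to 2.55 RPKM to 1.27 to 1.60 RPKM, and Gm42728 from 1.80 to 2.18 RPKM to 1.39 to 1.56 RPKM. In Pds5b, Gm24630 went from 1.88 to 4.03 RPKM to 0.310 to 1.74 RPKM, and Gm43807 from 1.25 to 1.92 RPKM to 0.850 to 0.876 RPKM.

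Ctcf (chr8:105636568-105682922, plus strand), the zinc finger protein that marks loop anchors, was at 27.4, 29.4 and 34.1 RPKM before and 23.5, 24.1 and 25.3 RPKM after stimulation. Each stimulated library was below each unstimulated one (log2 difference -0.30, SE 0.087, limma Benjamini-Hochberg adjusted p = 0.0155). This call ended with median centring (log2 difference -0.04, adjusted p = 0.545) and without stimulated replicate 1 (log2 difference -0.28, adjusted p = 0.0545). By edgeR on summed allelic counts the difference was -0.48 (adjusted p = 0.0189). A non-coding gene on the opposite strand, Gm5914, overlaps Ctcf and was at 3.17, 1.16 and 3.33 RPKM before and 0.991, 1.01 and 1.51 RPKM after.

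The promoters of 7 members were matched by symbol in RefSeq (GRCm38.p6). The 3 printed here are the X-linked ring subunit and the 2 members with an E2F-type match, the element of many genes of dividing cells; they are shown because Smc1a was read almost wholly from 1 allele and the other 2 moved in opposite directions. They are Smc1a at chrX:152016178-152016427 on the plus strand, Stag1 at chr9:100643198-100643447 on the plus strand and Pds5a at chr5:65698274-65698486 on the minus strand. Each lies upstream of a RefSeq transcription start, and that of Pds5a is cut where an annotated exon begins. The Stag1 window lies inside the gene as placed above (chr9:100597798-100959375), so its RefSeq start is internal to that gene model. Capitals mark motif matches: ATTGG is CCAAT (NF-Y) on the other strand, TTTCCCGC and GCGCCAAA (TTTGGCGC on the other strand) are E2F-type, and AAAATGGC is GCCATNTT (YY1) on the other strand.
Smc1a: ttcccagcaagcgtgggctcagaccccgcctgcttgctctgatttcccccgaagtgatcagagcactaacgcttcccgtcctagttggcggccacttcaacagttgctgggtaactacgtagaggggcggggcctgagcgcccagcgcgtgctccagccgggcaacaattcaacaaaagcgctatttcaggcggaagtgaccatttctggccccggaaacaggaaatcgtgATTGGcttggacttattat
Stag1: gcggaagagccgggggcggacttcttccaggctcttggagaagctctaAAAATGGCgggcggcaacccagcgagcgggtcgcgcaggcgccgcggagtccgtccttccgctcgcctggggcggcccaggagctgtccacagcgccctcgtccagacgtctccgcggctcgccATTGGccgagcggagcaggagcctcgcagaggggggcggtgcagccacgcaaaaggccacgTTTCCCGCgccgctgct
Pds5a: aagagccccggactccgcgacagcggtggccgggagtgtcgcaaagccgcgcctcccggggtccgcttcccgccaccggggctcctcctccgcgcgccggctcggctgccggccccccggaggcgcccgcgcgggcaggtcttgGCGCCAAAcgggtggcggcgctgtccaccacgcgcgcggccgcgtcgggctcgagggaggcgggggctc
Over 32851 RefSeq promoter windows of 250 bases, searched on both strands, TTTCCCGC was in 0.895%, TTTGGCGC in 0.417%, CCAAT in 33.8% and GCCATNTT in 3.91%. Among the 7 members' windows CCAAT was in 4 (Pds5b, Smc1a, Stag1, Wapl) and GCCATNTT in 2 (Pds5b, Stag1). A partial CTCF core motif was in 2.07% of all windows and in none of the 7, which says only that its letters are not in those windows. Stag1, which fell, and Pds5a, which rose, thus each hold an E2F-type match, at bases -17 to -10 and -106 to -99 counted back from the RefSeq start, which for Pds5a lies beyond the end of the printed, cut sequence. A match describes these letters only.

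All 10 members were highest, among unstimulated libraries, in replicate 3 and lowest in replicate 1. Of all genes tested, 54.7% were highest in replicate 3 and 44.0% lowest in replicate 1. Without unstimulated replicate 3, 5 members were higher and 4 lower. The members' median log2 difference was then 0.12, against -0.23 over all genes tested. The shares of all genes called in that setting were not computed.

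**Figure D2:**
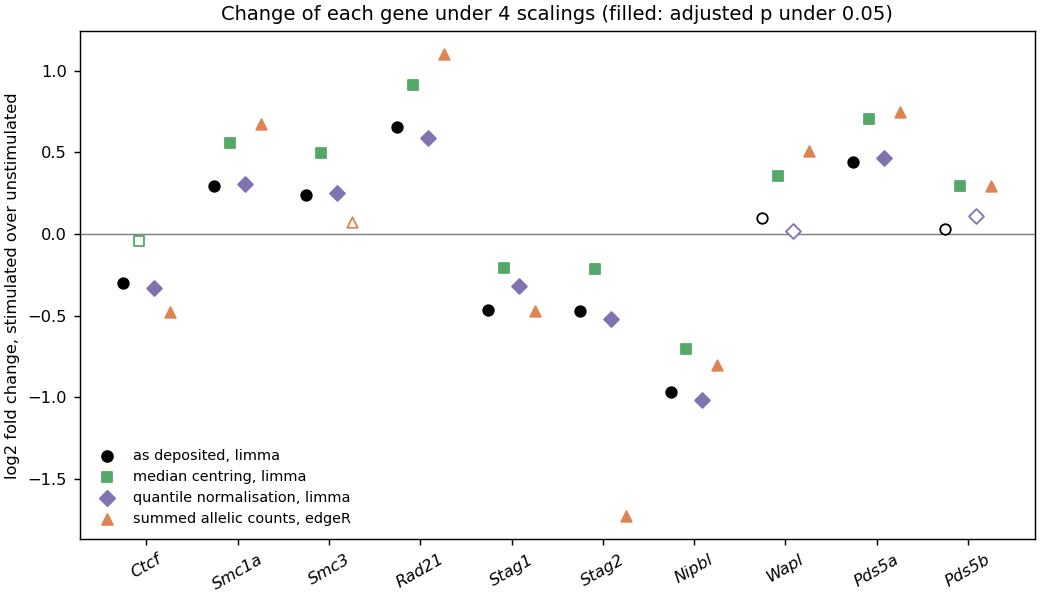
Log2 difference, stimulated against unstimulated, of each member under 4 scalings: RPKM as deposited, median centring and quantile normalisation (limma), and summed allelic counts (edgeR). Filled symbols have an adjusted p under 0.05. With the deposited values Nipbl is lowest and Rad21 highest, and Ctcf, Smc3, Wapl and Pds5b lie near zero in at least 1 scaling.

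The order of the levels changed between the states. Among unstimulated cells, Nipbl and Rad21 led at 50.3 and 48.8 RPKM and Stag1 was lowest at 12.8 RPKM. Only 2 pairs of neighbours in that order did not overlap: Rad21 above Stag2, and Ctcf above Smc1a. In stimulated cells Rad21 led at 77.1 RPKM, above Wapl at 37.8 RPKM, and Nipbl, at 25.2 RPKM, also stood below Stag2. There the neighbouring libraries overlapped only between Stag2 and Nipbl, Nipbl and Ctcf, and Pds5a and Smc1a.

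Ratios between members within a library cancel the scaling of that library. Of 6 pairs compared, 4 had no overlap between groups. The share of all gene pairs without overlap was not computed, and single genes did not overlap in 83.5% of those tested. The smallest two-sided p that 3 libraries against 3 allow in an exact permutation test is 0.1, which these 4 pairs reached (Benjamini-Hochberg adjusted p = 0.15 over 6 pairs), so none could pass 0.05. The ratio of Nipbl to Wapl was 1.53, 1.43 and 1.32 before and 0.650, 0.662 and 0.689 after, a log2 change of -1.10. The ratio of Ctcf to Rad21 was 0.622 ± 0.0087 before and 0.315 ± 0.0053 after (SD, n = 3 and 3). The spread within each group was small next to the gap. Rad21 against Smc3, 2 partners in the ring, went from 2.72 ± 0.16 to 3.63 ± 0.15. The ratio of Smc1a to Smc3 was 1.02 ± 0.072 and 1.06 ± 0.019 and overlapped (exact permutation p = 0.4). On summed allelic counts the log2 change was 0.61 for Smc1a to Smc3, without overlap (exact permutation p = 0.1), against 0.06 in RPKM. It was 1.03 for Rad21 to Smc3, against 0.42, and -1.58 for Ctcf to Rad21, against -0.98. These are ratios of RNA and not of protein.

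**Figure D3:**
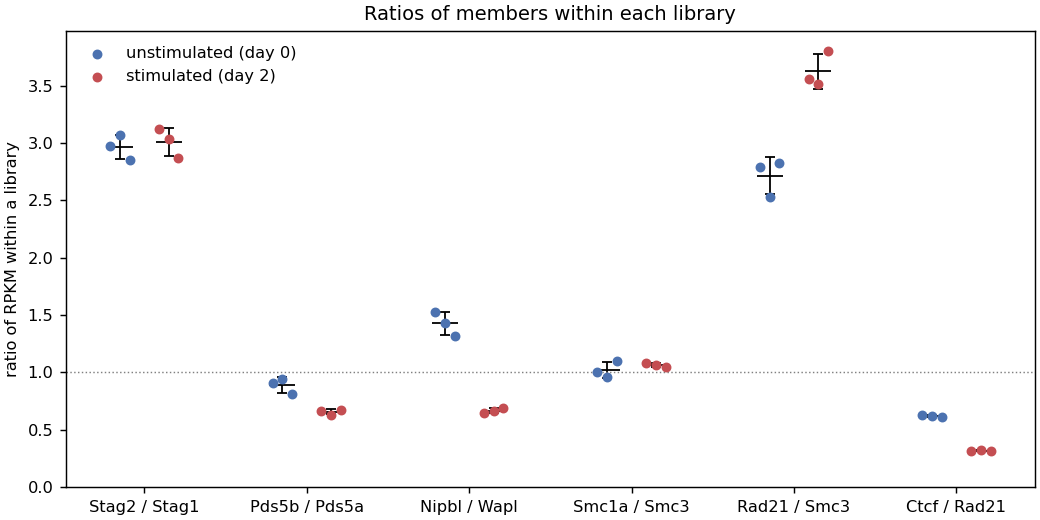
Ratio of RPKM within a library for 6 pairs of members, 1 point per library on a linear axis, with bars for the mean and SD of a group and a dotted line at 1. Nipbl to Wapl, Ctcf to Rad21, Pds5b to Pds5a and Rad21 to Smc3 separate the groups, while Stag2 to Stag1 and Smc1a to Smc3 overlap.

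Other genes that act on cohesin were counted as whole lists. Of 6 genes of loading and acetylation, 2 were higher, 4 lower and none short of the threshold, with a median log2 difference of -0.55. Mau2, the partner of Nipbl, was lower as well, from 19.4, 17.9 and 17.5 RPKM to 6.07, 6.10 and 6.01 RPKM (log2 difference -1.45, limma Benjamini-Hochberg adjusted p = 3.24e-06). Hdac8, the SMC3 deacetylase, had a log2 difference of -0.83, with no overlap, and -0.32 with quantile normalisation and -1.32 by edgeR on summed allelic counts. The 2 higher genes were Cdca5 (sororin, which opposes Wapl), with a log2 difference of 2.80, and Esco2, the acetyltransferase of replicating cells, with 2.19. With median centring 2 of the 6 were higher and 3 lower.

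Of 9 genes that remove or protect cohesin in mitosis, 8 were tested and all 8 were higher, with a median log2 difference of 2.95. Sgol2b was listed at 0 in each library and not tested. Espl1, which encodes separase, the protease that cuts RAD21, went from 1.24, 1.29 and 4.63 RPKM to 27.7, 27.6 and 27.2 RPKM. Plk1, Aurkb and Cdk1, the mitotic kinases, had log2 differences of 3.26, 3.43 and 3.31, and all 3 are also in the cell cycle list, of which 26 of 26 were higher. Each of these 4 genes was highest, among unstimulated libraries, in replicate 3. Next to them the rise of Rad21, at 0.65 on the same scale, was small.

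Of 8 condensin genes, 7 were higher and the median log2 difference was 2.30. Condensin is the related ring that compacts mitotic chromosomes. Ncapg, Ncapd2, Ncaph and Ncapg2 had the largest differences, from 2.41 to 2.88. The one gene not past the threshold, named here after its values were seen, was Smc4, which was already at 61.3 to 78.4 RPKM before stimulation and at 73.4 to 75.0 RPKM after. With median centring all 8 were higher.

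Of 7 genes of the SMC5/6 complex and SMCHD1, which acts on the inactive X, 2 were higher, 1 lower and 4 did not pass. The SMC pair of that complex differed in direction: Smc5 went from 10.8, 13.1 and 15.8 RPKM to 21.2, 22.6 and 22.8 RPKM, and Smc6 from 30.8, 37.0 and 37.1 RPKM to 18.2, 17.98 and 17.5 RPKM. The log2 differences were 0.72 and -0.93, each with no overlap, and that of Smc5 was 1.17 by edgeR on summed allelic counts. With median centring, quantile normalisation or edgeR on summed allelic counts, 5 of the 7 were higher and 1 lower.

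Of 8 other architectural factors, 1 was higher, 4 lower and 3 did not pass. Satb1, a chromatin organiser of T cells, went from 45.8 to 50.4 RPKM to 72.4 to 79.8 RPKM (log2 difference 0.66). The log2 difference was -0.87 for Ldb1, a looping cofactor, and -0.55 for Chd8 and for Vezf1. That of Chd8 was -0.29 with median centring and -0.22 by edgeR on summed allelic counts. The Vezf1 call ended with quantile normalisation (-0.25, adjusted p = 0.0817), edgeR (-0.24, adjusted p = 0.207) and DESeq2 (-0.27, adjusted p = 0.211) on summed allelic counts. With median centring 4 of the 8 were higher and 3 lower, and by edgeR 4 and 2. The list of 4 meiotic cohesin genes and the CTCF paralogue Ctcfl had no gene past the filter on low values. Its 5 genes summed to 0.693 to 1.58 RPKM before and 0.236 to 0.278 RPKM after, and Rad21l and Ctcfl were listed at 0. With no filter, and with edgeR or DESeq2 on summed allelic counts, 1 of the 5, Rec8, was lower (named after its values were seen).

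As a description over only 6 libraries, the tested genes whose log2(RPKM + 1) followed Ctcf most closely were Eng, Sp110 and Vps26a (Pearson r of 0.998, 0.997 and 0.997), among 516 genes at 0.95 or above. For Rad21 they were Slamf7, Ube2l3 and Gdi2 (r of 0.999 each), among 2332 genes. The 6 points share the split into 2 groups.

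The haploid table gives, for each member, the reads that could be assigned to 1 allele. For the 8 autosomal members the cast share was between 41.1% and 54.8% in each library. Rad21, the most deeply read, had cast shares of 50.6%, 51.5% and 48.0% before (2656 to 3853 reads per library) and 48.6%, 49.2% and 49.7% after (7498 to 11229 reads). Nipbl had 49.8%, 51.4% and 49.8% before and 50.9%, 48.1% and 49.1% after, so the lower Nipbl level was read from both alleles. Ctcf had only 210 to 355 reads per library and shares of 50% to 52.1% before and 50.5% to 54.8% after. In each of these 3 genes the groups overlapped.

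No member changed its cast share with stimulation at an adjusted p under 0.05 (edgeR, allele by group, Benjamini-Hochberg over 12834 genes), against 10.2% of all genes tested, 4.96% of X-linked and 10.4% of autosomal genes. At an unadjusted p under 0.05 there was 1 member, Pds5b, with edgeR and 0 with DESeq2. Pds5b had cast shares of 45.8%, 47.3% and 53.2% before and 51.8%, 53.7% and 53.8% after, with unstimulated replicate 3 among the stimulated libraries (log2 ratio change 0.25, edgeR Benjamini-Hochberg adjusted p = 0.193). Without unstimulated replicate 3 it was past the threshold (0.38, adjusted p = 0.0357). Pds5a was the 1 member whose shares did not overlap, at 46.3%, 47.5% and 48.1% before and 48.6%, 48.4% and 49.1% after. Its log2 ratio change was 0.08 (edgeR Benjamini-Hochberg adjusted p = 0.560). The share of all genes without such overlap was not computed.

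Within unstimulated cells, both X-linked members (96.7% of X-linked genes) and 2 of the 8 autosomal members had unequal alleles (edgeR, Benjamini-Hochberg adjusted p under 0.05), against 30.7% of autosomal and 32.6% of all genes. Stag1 had cast shares of 41.1%, 48.1% and 44.1% (log2 cast to mus -0.33, adjusted p = 0.0241) and Pds5a a log2 ratio of -0.15 (adjusted p = 0.0231). Both calls ended with scaling per allele, with DESeq2 and without unstimulated replicate 1. That of Stag1 also ended without unstimulated replicate 3 and that of Pds5a without unstimulated replicate 2. In stimulated cells both X-linked members passed (96.4% of X-linked genes) and none of the 8 autosomal ones, against 35.9% of autosomal and 37.6% of all genes. Of these 8, 1 had an unadjusted edgeR p under 0.05 and 0 passed with DESeq2. It was Pds5b (log2 ratio 0.18, adjusted p = 0.0837), which passed with the replicate number as a block (adjusted p = 0.0412), with scaling per allele (0.24, adjusted p = 0.0255) and without unstimulated replicate 3 (adjusted p = 0.0373).

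**Figure D4:**
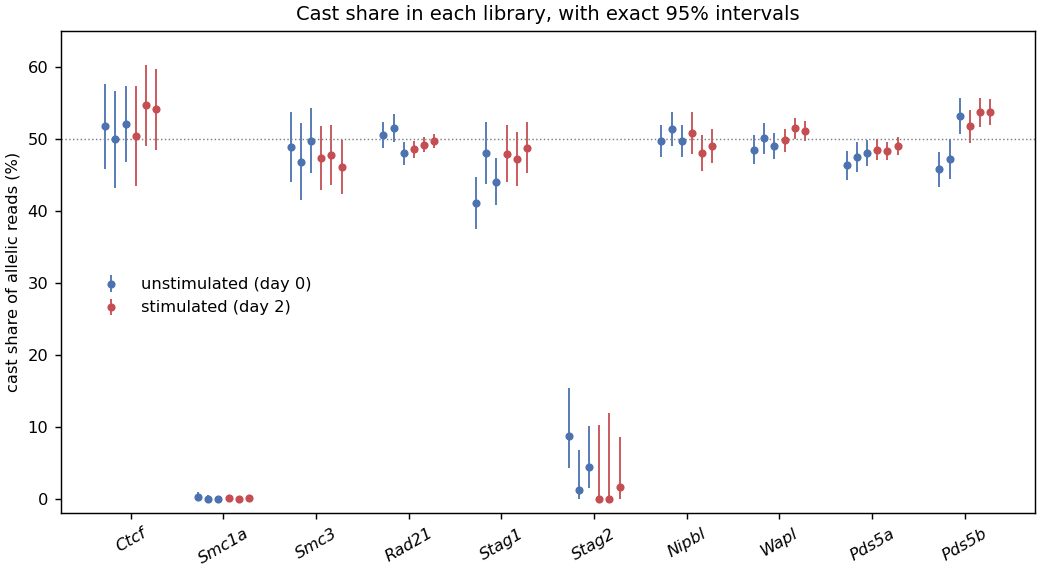
Cast share of allelic reads, in percent, for each member and library, with unstimulated and stimulated libraries as separate points, exact 95% intervals as bars and a dotted line at 50%. The 8 autosomal members lie between 41.1% and 54.8%, and Smc1a and Stag2, on the X, lie between 0% and 8.70%.

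The 2 X-linked members were read almost wholly from the mus X, which is set by the cross. Smc1a, known to escape X inactivation in humans, had 2 cast reads of 806, 0 of 763 and 0 of 1076 before and 2 of 1613, 0 of 1904 and 2 of 2194 after. A count of 0 allows a share of up to 0.393%, 0.279% and 0.158% in those 3 libraries. Pooled over a group, the cast share was 0.0756% before (exact Clopper-Pearson 95% interval 0.00916% to 0.273%) and 0.0700% after (0.0191% to 0.179%). These intervals cover counting error only.

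Stag2 had far fewer allelic reads. Its cast counts were 10 of 115 (8.70%), 1 of 79 (1.27%) and 5 of 112 (4.46%) before and 0 of 34, 0 of 29 and 1 of 62 (1.61%) after. The libraries differed within the unstimulated group and the groups overlapped. A count of 0 allows shares of up to 8.82% and 10.3% in those stimulated libraries. The pooled shares were 5.23% of 306 reads (exact 95% interval 3.02% to 8.35%) and 0.800% of 125 reads (0.0203% to 4.38%), with intervals that overlap, and the change did not pass (log2 -2.20, edgeR unadjusted p = 0.0667, Benjamini-Hochberg adjusted p = 0.262). Among X-linked genes with at least 100 reads, Xist left out, 54 of 320 (16.9%) had a higher cast share than Stag2 before stimulation and 82 of 329 after.

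Stag2 also stood apart in how few allelic reads it gave for its RPKM. In allelic RPM (reads per M allelic reads of the library) it fell from 9.14 ± 0.80 to 2.32 ± 0.73 (SD, n = 3), a 3.95-fold difference, against 1.41-fold in RPKM. Allelic RPM per RPKM was 0.241 ± 0.029 before and 0.0862 ± 0.030 after for Stag2, and 13.99 and 14.4 for Pds5a. The edgeR log2 change on summed allelic counts minus the limma change on log2(RPKM + 1) was -1.26 for Stag2. That was lower than in all but 6.83% of 12127 genes, whose median was 0.34. These changes also differ in scaling and in pseudocount. So the Stag2 fall is 1.41-fold in RPKM and 3.95-fold in allelic RPM (log2 difference -1.73 by edgeR), and the reason was not tested. The opposite-strand model Gm37564 overlaps Stag2 and was at 0.806 to 1.43 RPKM before and 0 to 0.336 RPKM after.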

How the data were processed

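Total RNA libraries were prepared with a stranded kit with ribosomal RNA depletion, per the labels' protocols. The submitters' processing notes name STAR 2.7.1a, featureCounts and mm10. The authors deposited a table of RPKM for both alleles together and a table of counts of reads per gene and allele, as the headers name them. Not given in the sources used here are the assignment of reads to alleles, the gene lengths, the strand setting of counting and the library total behind the RPKM. Genes were placed with GENCODE M21, which matched 49412 of 49671 genes.

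From the RPKM, log2(RPKM + 1) was fitted with limma 3.58.1 (R 4.3.3, trend) over genes at 1 RPKM or more in at least 3 libraries, which understates the change of low genes. From the counts, edgeR 4.0.16 fitted allele, group and their interaction by quasi-likelihood over genes with at least 30 allelic reads in each group. DESeq2 1.42.0, other scalings, filters, pseudocounts, a replicate block and leaving out each library were alternatives. P-values were adjusted by Benjamini-Hochberg over all genes tested. Ratios within a library were compared with exact two-sided permutation tests. Intervals are exact Clopper-Pearson (95%), and the limit for a count of 0 is 3 reads. Counts are reads without molecular identifiers, so intervals and limits cover counting error only. No 2 replicates held identical values or agreed within sampling noise.

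Same-numbered libraries deviated together in allelic ratios over 9043 autosomal genes (Pearson r of 0.28, 0.30 and 0.18, and -0.22 to -0.07 for different numbers). That pattern comes from the data and not from the labels. The main allelic fit held no term for the replicate number, which entered only the alternative with a replicate block. Named genes are the members, up to 4 genes of each other list with the largest difference past the threshold and no overlap, and the 3 genes most like Ctcf and Rad21. Members and lists were chosen with earlier results of these data known.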

Additional observations from a re-analysis of the deposited data

How the results depend on the processing

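In RPKM, 9 of the 10 members kept their direction under each setting run, and Pds5b, near zero, did not. The count of members higher was 4; it was 2 without the filter on low values, since Smc1a and Smc3 lost their calls, and 2 to 5 when 1 library was left out. The count of members with a changed cast share was 0, and 0 to 1 when 1 library was left out. The count with unequal alleles in unstimulated cells was 4, with 2 from scaling per allele, 2 from DESeq2 and 2 to 4 when 1 library was left out. With scaling per allele and with DESeq2 the 2 were the X-linked members, and 0 of the 8 autosomal members passed. The shares of all genes called without the filter, with scaling per allele, with DESeq2 or with 1 library left out were not computed.

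The ratio of Stag2 to Stag1, a log2 change of 0.02, turned to -1.32 on summed allelic counts and to -0.0078 with a pseudocount of 1, and ran from -0.0063 (without unstimulated replicate 3) to 0.054 when 1 library was left out, with -0.0053 without stimulated replicate 1. When 1 library was left out, Pds5b expression ran from -0.0091 to 0.061 and the change of the Smc1a cast share from -0.84 to 3.00 (3.00 without unstimulated replicate 1, 0.38 without stimulated replicate 2). In unstimulated cells the log2 ratio of cast to mus ran from -0.042 to 0.060 for Rad21 (-0.0010 with DESeq2, -0.015 and -0.042 without unstimulated replicates 1 and 2), from -0.014 to 0.033 for Nipbl and from -0.20 to 0.017 for Pds5b, and was 0.026 for Wapl with scaling per allele. In stimulated cells it was 0.00998 for Rad21 and 0.018 for Nipbl with scaling per allele. The causes were not tested.

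Of all 13288 genes, 4148 were higher and 6494 lower with the deposited scaling, 5432 and 5206 with median centring, and 5394 and 4878 with quantile normalisation. The median over all genes moved from -0.24 to 0.02 and 0.04.

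With the replicate number as a block, 3 members were higher and 4 lower, and 0 changed cast share. The shares of all genes called with that block were not computed. In RPKM, same-numbered libraries correlated at 0.0060, 0.061 and 0.091, against -0.098 to 0.069 for different numbers. These correlations do not show whether same-numbered libraries came from the same animal. Depth limits Stag2 most, with 29 to 115 allelic reads per library.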
